A study of Macaca mulatta with 40 samples.

Results

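The muscles described here are 5 of 36 rhesus monkey thigh muscles in which the mRNA of MYMK was high. MYMK encodes myomaker, a membrane protein that muscle precursor cells need in order to fuse. The 5 animals were chosen by their own MYMK level: they were those with MYMK at 1 or more CPM (the usual unit of RNA sequencing, the read count scaled by the library total), and the other 31 animals were under 1. They were CALRES_15, CALRES_4 and CALRES_12 on calorie restriction (CR) and CTR_10 and CTR_9 on the control diet. RNA was sequenced from the vastus lateralis, a muscle of the front of the thigh, taken after death from 40 monkeys of both diets. Calorie restriction here means a long-term reduced food ration. The comparison left out CTR_2, CTR_8, CALRES_2 and CALRES_3, which leaves 18 animals on each diet. The high-MYMK animals died at 21.65 (CTR_10), 23.55 (CALRES_12), 25.4 (CALRES_4), 32.96 (CALRES_15) and 36.7 years (CTR_9), and the others at 22.84 to 42 years, with a median of 30.92. The labels used give no sex or weight, and no treatment other than diet.

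Adult muscle fibres are repaired by satellite cells, which express PAX7, multiply, switch on MYOD1 and MYOG and then fuse with each other or with fibres. Newly made fibres carry fetal forms of the contractile proteins. Fibres that have lost their nerve spread acetylcholine receptors and NCAM1 over their surface, macrophages clear damaged fibres, and fibroblasts lay down collagen around them.

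All 36 libraries carried the mRNAs of mature skeletal muscle, with ACTA1, the skeletal actin, at 3700 to 60100 normalised CPM (CPM on library sizes scaled by the trimmed mean of M-values). The group was not given the name of regenerating muscle here, because PAX7, MYF5, MYOD1, MYOG and MYF6 did not pass the test, as described further down. Library totals were 119424371 to 230449887 counts in the high-MYMK muscles and 86580429 to 329942965 in the others. Age, library total, number of genes with a count, the share of the 10 most abundant genes and the share of signal recognition particle RNA did not pass an exact two-sided permutation test (smallest p = 0.248, for age, and adjusted p = 0.741 over 5 measures). CTR_18 of the 31 stood apart, with 72.3% signal recognition particle RNA and 83.6% of its counts in its 10 most abundant genes. Without CTR_18 the number of genes higher in the high-MYMK muscles was 263, against 279 with it. CR animals made up 3 of the 5 and 15 of the 31 (Fisher's exact test, p = 1). Library set 1, the libraries titled 1 to 10, held 3 of the 5 and 13 of the 31 (Fisher's exact test, p = 0.637).

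The promoter sequences of MYMK and of 2 of the genes that were higher beside it are shown because these genes belong to the contractile apparatus and nerve contact of immature or denervated fibres, and myogenic transcription factors bind the short motif CANNTG, the E-box, which reads as CANNTG on both strands. The genes were chosen after their values were seen. Each line holds the 250 bases before the annotated start of the gene, 5′ to 3′ on the strand of the gene, with E-boxes in capitals, in the Mmul_10 assembly. MYMK lies at chr15:4721513-4737234 on the plus strand, with its upstream bases at chr15:4721263-4721512. TNNT2 lies at chr1:58779791-58798498 on the minus strand (upstream bases chr1:58798499-58798748). CHRNA1 lies at chr12:61844749-61861713 on the minus strand (chr12:61861714-61861963).
MYMK: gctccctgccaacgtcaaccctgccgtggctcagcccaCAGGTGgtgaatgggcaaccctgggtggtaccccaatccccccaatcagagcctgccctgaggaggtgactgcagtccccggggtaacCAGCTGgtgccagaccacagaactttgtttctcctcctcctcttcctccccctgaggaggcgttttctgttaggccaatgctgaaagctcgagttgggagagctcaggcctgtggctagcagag
TNNT2: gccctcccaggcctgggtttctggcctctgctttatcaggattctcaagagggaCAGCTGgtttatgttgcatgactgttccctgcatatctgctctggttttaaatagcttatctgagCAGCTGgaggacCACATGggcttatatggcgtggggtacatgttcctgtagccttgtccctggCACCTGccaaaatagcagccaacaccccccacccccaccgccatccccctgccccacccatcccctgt
CHRNA1: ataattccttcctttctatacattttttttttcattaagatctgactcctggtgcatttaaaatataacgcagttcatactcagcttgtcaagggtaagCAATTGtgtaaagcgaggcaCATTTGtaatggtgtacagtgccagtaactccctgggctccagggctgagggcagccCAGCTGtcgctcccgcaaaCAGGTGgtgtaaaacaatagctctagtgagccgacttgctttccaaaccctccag

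The MYMK window held 2 E-boxes, and those of TNNT2 and CHRNA1 held 4 each. Of 20769 windows of the same length before annotated genes, 26.3% held 2 or more and 2.82% held 4 or more. The form CAGCTG, itself an E-box, occurred in 2500 of the 20769 windows and was present in each of the 3 shown. Of the other genes looked at in this way, ITGAX had 3 E-boxes, SOX11 2, COL1A1 and GPNMB 1 each, and ADAM12 and DCLK1 had none. CAGCTG was also present in the windows of ITGAX and COL1A1, genes of other lists or of none. It was absent from those of SOX11, GPNMB, ADAM12 and DCLK1. A match to these letters is a description of the sequence and was not tested as a binding site.

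MYMK, which chose the group, is given as a description only. It stood at 18.2 CPM in CALRES_15 (3323 counts), 4.37 in CTR_10 (522 counts), 3.99 in CALRES_4 (543 counts), 3.20 in CTR_9 (536 counts) and 1.79 in CALRES_12 (412 counts). In the other 31 animals it ran from 0 to 0.817 CPM, with a median of 0.166. Just inside the threshold lay CALRES_12, and just outside it lay CTR_20 at 0.817 CPM. CALRES_15 thus had the highest level by a wide margin, and it also weighed most in the comparisons that follow.

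**Figure D1:**
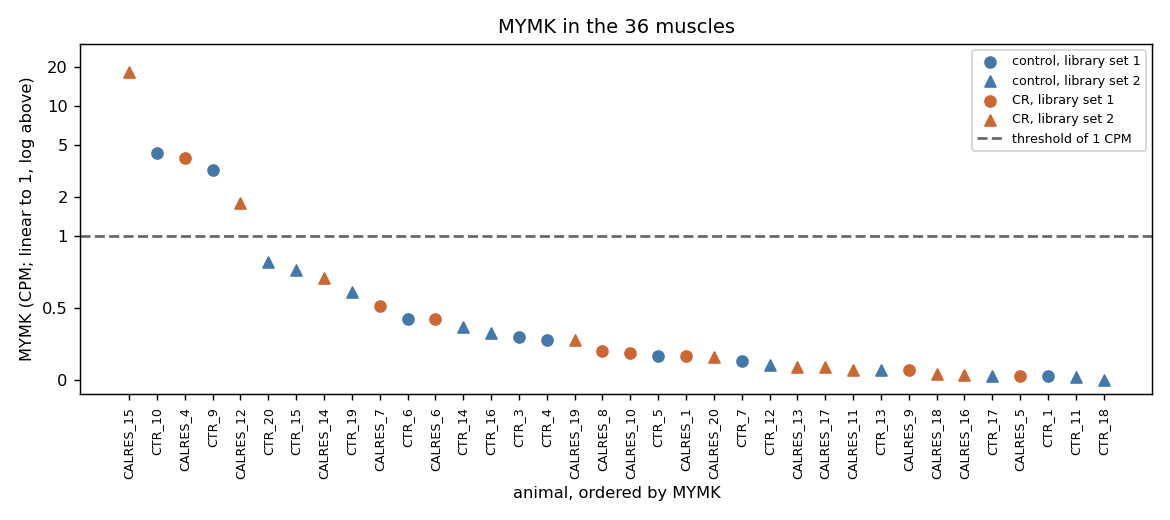
MYMK in CPM (linear up to 1 and logarithmic above) in each of the 36 muscles, ordered from high to low. Colour gives the diet, the symbol the library set, and the dashed line the threshold of 1 CPM. The 5 animals above the line range from 1.79 to 18.2 CPM, and the other 31 reach at most 0.817 CPM.

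Across the 20971 genes tested other than MYMK, 279 (1.33%) were higher and 2 (0.00954%) were lower in the high-MYMK muscles, 1.34% together, at an adjusted p under 0.05, in a model with library set and diet. The median log2 fold change of all genes tested was -0.07. At an unadjusted p under 0.01, the threshold of the study, 674 genes (3.21%) were higher and 44 (0.21%) lower. Without CALRES_15 the number of higher genes was 52, and without CALRES_4 it was 180. Without both it was 30, of which 27 were among the 279. The 40 genes that were higher in the comparison and stayed called in all 36 fits that omit an animal included TNNT2, MYL4, ADAM12, SOX11, DCLK1, COL1A1, COL3A1, BGN, ITGAX, GPNMB, CD68 and MMP9. A gene that stayed called need not be high in all 5 muscles, as MMP9 was below the median of the rest in 2 of them. In bulk tissue, more cells of a type and more RNA per cell cannot be told apart. Among the 279 genes, CALRES_15 was above every other animal of the 36 in 128, CALRES_4 in 68, CTR_9 in 46, and CTR_10 and CALRES_12 in 9 each.

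Among proteins of cell fusion, ADAM12, a membrane-bound metalloprotease found in fusing muscle cells and activated fibroblasts, was higher. It stood at 12.8 normalised CPM in CALRES_15, 3.45 in CTR_10, 16.9 in CALRES_4, 2.80 in CTR_9 and 3.08 in CALRES_12, against 0.0324 to 2.36 (median 0.221) in the rest. CTR_18 was the highest of the rest and CALRES_19 the next at 1.28. All 5 animals lay above all 31 others. The log2 fold change was 4.81 (SE 0.61, adjusted p = 4.05e-06), and without CALRES_4 it was 3.99. ADAM12 and COL1A1 had been named for this group with earlier results known, so their direction is no independent evidence. ADAM12 was 1 of the 16 tested members of a list of fusion genes and the only one of them that passed the test. The list's median log2 fold change was 0.30. The adhesion protein KIRREL1 reached an adjusted p of 0.079 (log2 fold change 0.99, SE 0.29).

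The gene lists were written with earlier results of these data known, so the shares given for them are no independent evidence. Of 10 tested developmental sarcomere genes 3 (30%) were higher (TNNT2, MYL4 and ACTC1), where 1.33% of all genes were. The list's median log2 fold change was 0.79, with MYL6B (-1.32) and CSRP3 (-0.95) below 0. TNNT2, the troponin T of embryonic and cardiac muscle, stood at 32.9 normalised CPM in CALRES_15, 20.6 in CTR_10, 11.2 in CALRES_4, 40.9 in CTR_9 and 22.4 in CALRES_12, against 0.116 to 6.20 (median 1.24) in the rest. The groups did not overlap, and CTR_9 was the highest. The log2 fold change was 4.09 (SE 0.45, adjusted p = 4.28e-07), or 3.95 without CALRES_4 and CALRES_15.

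MYL4, the light chain of embryonic and atrial myosin, stood at 11.8, 5.58, 3.28, 4.09 and 5.999 normalised CPM in CALRES_15, CTR_10, CALRES_4, CTR_9 and CALRES_12. The rest ran from 0 to 3.36 (median 0.284), and only CALRES_6 of them overlapped with the group. The log2 fold change was 3.86 (SE 0.48, adjusted p = 3.11e-06). ACTC1, the cardiac actin that fetal skeletal muscle also makes, was at 173 to 352 normalised CPM in the 5 animals and at 3.63 to 286 (median 24.8) in the rest, where CTR_14 was the highest. Its log2 fold change was 2.51 (SE 0.61, adjusted p = 0.0221), but it did not pass without CTR_9 or without CALRES_15. The developmental myosins MYH3 and MYH8 and the fusion peptide MYMX were not analysed here.

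Most regulators that satellite cells use did not pass the test. SOX11, a transcription factor of embryonic cells, was at 0.468 to 1.80 normalised CPM in the 5 animals and at 0 to 0.409 in the others, so that the groups did not overlap, and its log2 fold change was 3.55 (SE 0.51, adjusted p = 3.45e-05). PAX7, which marks satellite cells, was at 5.43, 5.02, 12.9, 2.94 and 8.40 normalised CPM in CALRES_15, CTR_10, CALRES_4, CTR_9 and CALRES_12, against 1.18 to 8.84 (median 3.16) in the rest. The groups overlapped, with a log2 fold change of 0.79 (SE 0.39, adjusted p = 0.662).

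MYOD1, which commits cells to muscle, had a log2 fold change of -0.60 (SE 0.58, adjusted p = 0.922), and its level in the 5 animals lay between 9.24 and 45.5 normalised CPM, within the range of the rest (3.09 to 99.4). MYOG, which drives differentiation, had a log2 fold change of 0.17 (SE 0.41, adjusted p = 0.975), MYF5 0.07 (SE 0.42, adjusted p = 0.993) and MYF6 -0.52 (SE 0.59, adjusted p = 0.937). Of 12 tested myogenic transcription factors only SOX11 passed, and of 15 tested satellite cell genes only NES did. NES, an intermediate filament of immature and regenerating fibres, was at 101.9 to 352 normalised CPM against 11.4 to 196, with a log2 fold change of 2.28 (SE 0.46, adjusted p = 0.00369) that did not pass without CALRES_15. TUBB6, a tubulin of newly formed fibres, rose with a log2 fold change of 2.19 (SE 0.29, adjusted p = 1.10e-05).

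Of 19 tested genes of the acetylcholine receptor and of denervated fibres 5 (26.3%) were higher, where 1.33% of all genes were. This list, too, was written with earlier results of these data known. The list's median log2 fold change was 0.38, and without CALRES_15 the number of higher genes was 2. DCLK1, a microtubule-binding kinase known from growing neurons, stood at 108 normalised CPM in CALRES_15, 56.5 in CTR_10, 96.1 in CALRES_4, 49.8 in CTR_9 and 29.5 in CALRES_12, against 1.99 to 25.0 (median 6.45) in the rest. All 5 were above all others, and the log2 fold change was 2.90 (SE 0.34, adjusted p = 1.05e-06). CHRNA1, the alpha subunit of the muscle acetylcholine receptor, stood at 168, 85.3, 170, 41.1 and 61.4 normalised CPM in the same order of animals, against 1.19 to 120 (median 16.02) in the rest.

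CHRNA1 overlapped with the rest, where CTR_14 was the highest, and its log2 fold change was 2.40 (SE 0.50, adjusted p = 0.00459), which did not pass without CALRES_15. The delta subunit CHRND had a log2 fold change of 1.87 (SE 0.49, adjusted p = 0.0403) and NCAM1, the adhesion molecule of denervated fibres, one of 1.72 (SE 0.35, adjusted p = 0.0037). CHRND lost its call in 15 of the fits with 1 animal left out, and NCAM1 without CALRES_15. The fetal receptor subunit CHRNG, with a log2 fold change of 2.79 (SE 0.77), reached an adjusted p of 0.060. None of 15 tested atrophy genes passed.

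**Figure D2:**
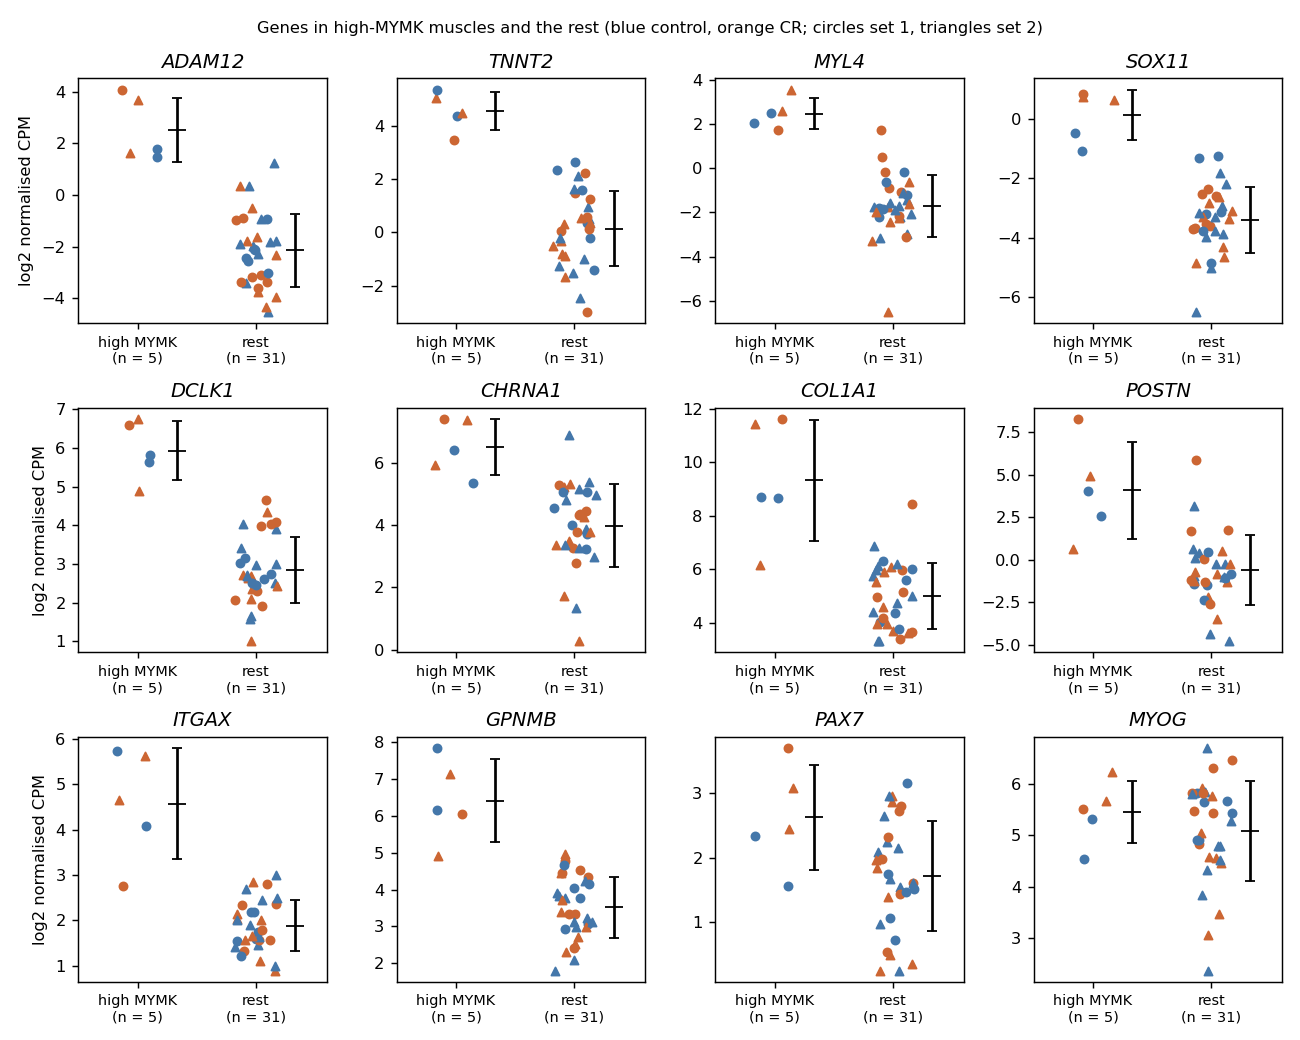
Log2 normalised CPM of 12 genes in the 5 high-MYMK muscles and the other 31, 1 point per animal, with the mean and SD beside the points. In ADAM12, TNNT2, SOX11 and DCLK1 all 5 points lie above the other 31, whereas PAX7 and MYOG overlap.

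The matrix of the connective tissue rose in more of its genes than any other list examined. Of 28 tested collagens and matrix genes 14 passed as higher, where 1.33% of all genes did, and the list's median log2 fold change was 1.55 against -0.07 over all genes. Every one of the 28 had a positive log2 fold change. Without CALRES_15 the number that passed was 5, without CALRES_4 it was 7, and without both it was 0.

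COL1A1, the chief chain of type I collagen, stood at 2774 normalised CPM in CALRES_15, 422 in CTR_10, 3149 in CALRES_4, 409 in CTR_9 and 71.8 in CALRES_12, against 9.95 to 350 (median 31.3) in the rest. CALRES_10 was the highest of the rest and CTR_14 the next at 118, so only CALRES_12 fell within their range. The log2 fold change was 4.66 (SE 0.58, adjusted p = 3.11e-06), and without CALRES_4 and CALRES_15 it was 2.28 and did not pass (adjusted p = 0.438). COL3A1, the collagen of early scar, had a log2 fold change of 4.08 (SE 0.65, adjusted p = 1.70e-04) and COL1A2 one of 3.75 (SE 0.55, adjusted p = 5.24e-05).

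BGN, the proteoglycan biglycan, stood at 60.4, 29.1, 95.3, 13.8 and 7.17 normalised CPM in CALRES_15, CTR_10, CALRES_4, CTR_9 and CALRES_12, against 0.971 to 15.98 in the rest, with a log2 fold change of 2.97 (SE 0.46, adjusted p = 9.43e-05). POSTN, periostin, a matrix protein of wounds, was at 311 normalised CPM in CALRES_4 and 30.0 in CALRES_15 but at 1.56 in CALRES_12, and CALRES_10 of the rest stood at 57.4. Its log2 fold change of 3.93 (SE 0.97, adjusted p = 0.0249) did not pass without CALRES_4 or without CALRES_15. Fibronectin, FN1, had 2.43 (SE 0.44, adjusted p = 9.96e-04) and was not called without CALRES_15.

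The other matrix genes that passed were COL5A1, COL5A2, COL6A1, COL6A2, COL6A3, COL8A1, SPARC and MMP14, with log2 fold changes from 1.42 (MMP14) to 2.78 (COL5A1). COL6A1, COL6A2, COL6A3, COL8A1, SPARC and MMP14 each lost the call when CALRES_4 or CALRES_15 was left out, MMP14 also without many other animals, and COL5A1 lost it without CALRES_15. The summed level of the 28 genes was 16430 normalised CPM in CALRES_4, 10327 in CALRES_15, 3452 in CTR_10, 3082 in CTR_9 and 1293 in CALRES_12, against 596 to 3564 (median 1023) in the rest. Of 13 tested genes of fibro-adipogenic progenitors, the fibroblasts that lie between fibres, only SFRP4 passed (log2 fold change 2.73, SE 0.69, adjusted p = 0.0309), not without CALRES_4 or CALRES_15 among others, and the list's median was 0.19. THY1 reached an adjusted p of 0.073 (log2 fold change 1.81, SE 0.51). The basement membrane list had 1 of 13, COL18A1, which did not pass without CALRES_4 or without CALRES_15. CDH11, a cadherin of fibroblasts, rose with a log2 fold change of 2.45 (SE 0.36, adjusted p = 5.47e-05).

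Of 19 tested macrophage genes 5 (26.3%) were higher, where 1.33% of all genes were. They were GPNMB, CD68, LAPTM5, TREM2 and MSR1. The number was 3 without CTR_9 and 2 without CALRES_15, but 8 without CALRES_12. ITGAX, the integrin CD11c of macrophages and dendritic cells, is not a member of that list and had the lowest p of all genes. It stood at 49.3 normalised CPM in CALRES_15, 16.9 in CTR_10, 6.74 in CALRES_4, 52.8 in CTR_9 and 25.2 in CALRES_12, against 1.85 to 7.97 (median 3.47) in the rest. Only CALRES_4 fell within the range of the rest, and the log2 fold change was 2.94 (SE 0.26, adjusted p = 3.06e-09).

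GPNMB, a glycoprotein of lipid-laden macrophages, stood at 139, 70.8, 65.4, 227 and 29.8 normalised CPM in CALRES_15, CTR_10, CALRES_4, CTR_9 and CALRES_12, against 3.48 to 31.2 (median 10.6) in the rest, with a log2 fold change of 2.91 (SE 0.32, adjusted p = 4.28e-07). CALRES_12 was the only animal of the 5 that overlapped. CD68, a lysosomal protein of macrophages, had a log2 fold change of 2.63 (SE 0.43, adjusted p = 1.93e-04). The median log2 fold change of the list was 1.40, and the receptor CSF1R had 1.24 (SE 0.44, adjusted p = 0.245). The list's summed level was 919 normalised CPM in CTR_9, 706 in CTR_10, 522 in CALRES_15, 240 in CALRES_12 and 202 in CALRES_4, against 31.6 to 595 (median 123) in the rest, where CTR_14 was the highest.

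Secreted enzymes of activated macrophages were unequal among the 5 animals. CHIT1, a chitinase, stood at 667 normalised CPM in CTR_9, 56.9 in CALRES_15, 10.9 in CTR_10, 2.19 in CALRES_12 and 1.48 in CALRES_4, against 0.0617 to 26.1 (median 0.852) in the rest, where CALRES_7 was the highest. Its log2 fold change was 6.14 (SE 0.98, adjusted p = 1.78e-04), and without CTR_9 it was 2.88 and did not pass (adjusted p = 0.127). MMP9, a gelatinase of macrophages and neutrophils, stood at 112.8 normalised CPM in CTR_9 and 49.3 in CALRES_15 but at 0.169 in CALRES_4 and 0.382 in CALRES_12, near or under the median of the rest (0.389). The log2 fold change was 5.86 (SE 0.76, adjusted p = 7.22e-06).

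The lysosomal enzymes LIPA and GM2A had log2 fold changes of 2.58 (SE 0.39, adjusted p = 8.58e-05) and 2.03 (SE 0.33, adjusted p = 1.82e-04), and ACP5, a phosphatase of osteoclasts and macrophages, one of 3.50 (SE 0.60, adjusted p = 3.92e-04). ACP5 did not pass without CTR_9, and LIPA did not pass without CALRES_15. SPP1, osteopontin, was at 309 normalised CPM in CTR_10 and 2.41 in CALRES_4 and did not pass (log2 fold change 2.21, SE 0.74, adjusted p = 0.185). Of 14 tested lymphocyte and neutrophil genes only FCGR3 passed, and it did not pass without CTR_9 or without CALRES_15.

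Of 20 tested cell cycle genes 2 (10%) were higher, where 1.33% of all genes were. They were MKI67, a marker of dividing cells, and RRM2, a subunit of ribonucleotide reductase. MKI67 had a log2 fold change of 2.72 (SE 0.56, adjusted p = 0.00459) and RRM2 one of 2.24 (SE 0.53, adjusted p = 0.0178), and neither passed without CALRES_15. None of 26 tested growth factor genes passed, with HGF, which activates satellite cells, at a log2 fold change of 1.44 (SE 0.39, adjusted p = 0.056) and TGFB1 at 1.11 (SE 0.31, adjusted p = 0.063).

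No gene of the lists for mature muscle passed in either direction in edgeR or DESeq2, whereas limma-voom called 15 of the 29 mitochondrial energy genes lower (median log2 fold change -0.73). The 29 tested genes of mitochondrial energy metabolism all had log2 fold changes below 0, with a median of -0.62, and MDH2 (-0.80, SE 0.36, adjusted p = 0.544), CKMT2 (-1.08, SE 0.47, adjusted p = 0.522) and ACADM (-0.99, SE 0.40, adjusted p = 0.428) did not pass. The median was -1.22 over 11 slow fibre genes, -0.29 over 13 fast fibre genes and -1.01 over 12 adipocyte genes. MYH7, the slow myosin, was at 16.6 normalised CPM in CTR_9 and at 1087 to 5013 in the other 4 high-MYMK muscles, against 50.2 to 36245 in the rest. The lists for endothelium, pericytes and smooth muscle, Schwann cells, tendon, excitation-contraction coupling and p53 and stress also had no gene that passed in edgeR.

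**Figure D3:**
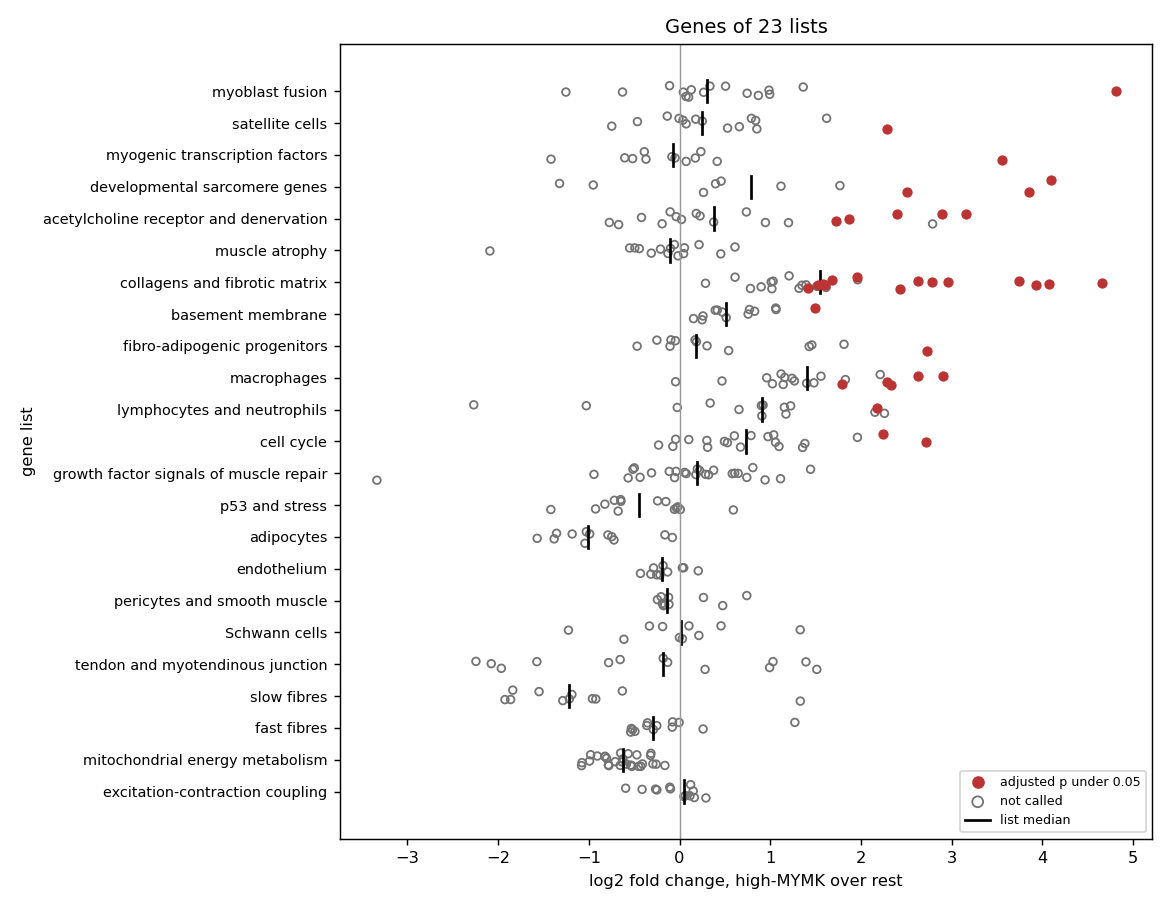
Log2 fold change (high-MYMK over rest) of each tested gene in 23 gene lists, with called genes filled, other genes open, and a bar at each list's median. The 14 called genes of the collagen and matrix list lie between 1.42 and 4.66.

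The 2 genes that were lower were TLE2, a transcriptional co-repressor, and EPB41L4B, a protein of the membrane skeleton. TLE2 was at 25.7 to 38.9 normalised CPM in the 5 animals against 26.2 to 134 (median 62.7) in the rest, with a log2 fold change of -1.06 (SE 0.27, adjusted p = 0.0353). EPB41L4B was at 0.318 to 1.01 against 0.609 to 10.7 (median 1.86), with a log2 fold change of -2.39 (SE 0.64, adjusted p = 0.0463). Both lost the call when any 1 of the 5 high-MYMK animals was left out, and also without CTR_1 or without CTR_3 of the rest, among others.

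All 5 animals lay above all 31 others in 8 genes (0.0381% of those tested). Beside ADAM12, TNNT2, SOX11 and DCLK1 these were SHD, LZTS1, NKAIN4 and TMEM169. SHD, an adaptor protein with an SH2 domain, stood at 7.49, 2.78, 3.996, 0.964 and 0.453 normalised CPM in CALRES_15, CTR_10, CALRES_4, CTR_9 and CALRES_12, against 0 to 0.397 in the rest, with a log2 fold change of 4.27 (SE 0.48, adjusted p = 4.28e-07).

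The 5 muscles were thus not alike. CALRES_15 was above the highest of the rest in 229 of the 279 genes, CTR_9 in 125, CTR_10 in 121 and CALRES_12 in 35, with CALRES_4 between the last pair. CALRES_4 had the highest summed matrix level and the lowest summed macrophage level of the 5. CTR_9 had the highest macrophage sum, and CALRES_12 the lowest matrix sum. Some animals of the rest were often the highest of the 31. Among the 279 genes, this was CALRES_11 in 53 genes, CALRES_10 in 31, CTR_15 in 29 and CTR_14 in 22. CALRES_11 also had the fewest genes with a count (19003), and without it the number of higher genes was 400.

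**Figure D4:**
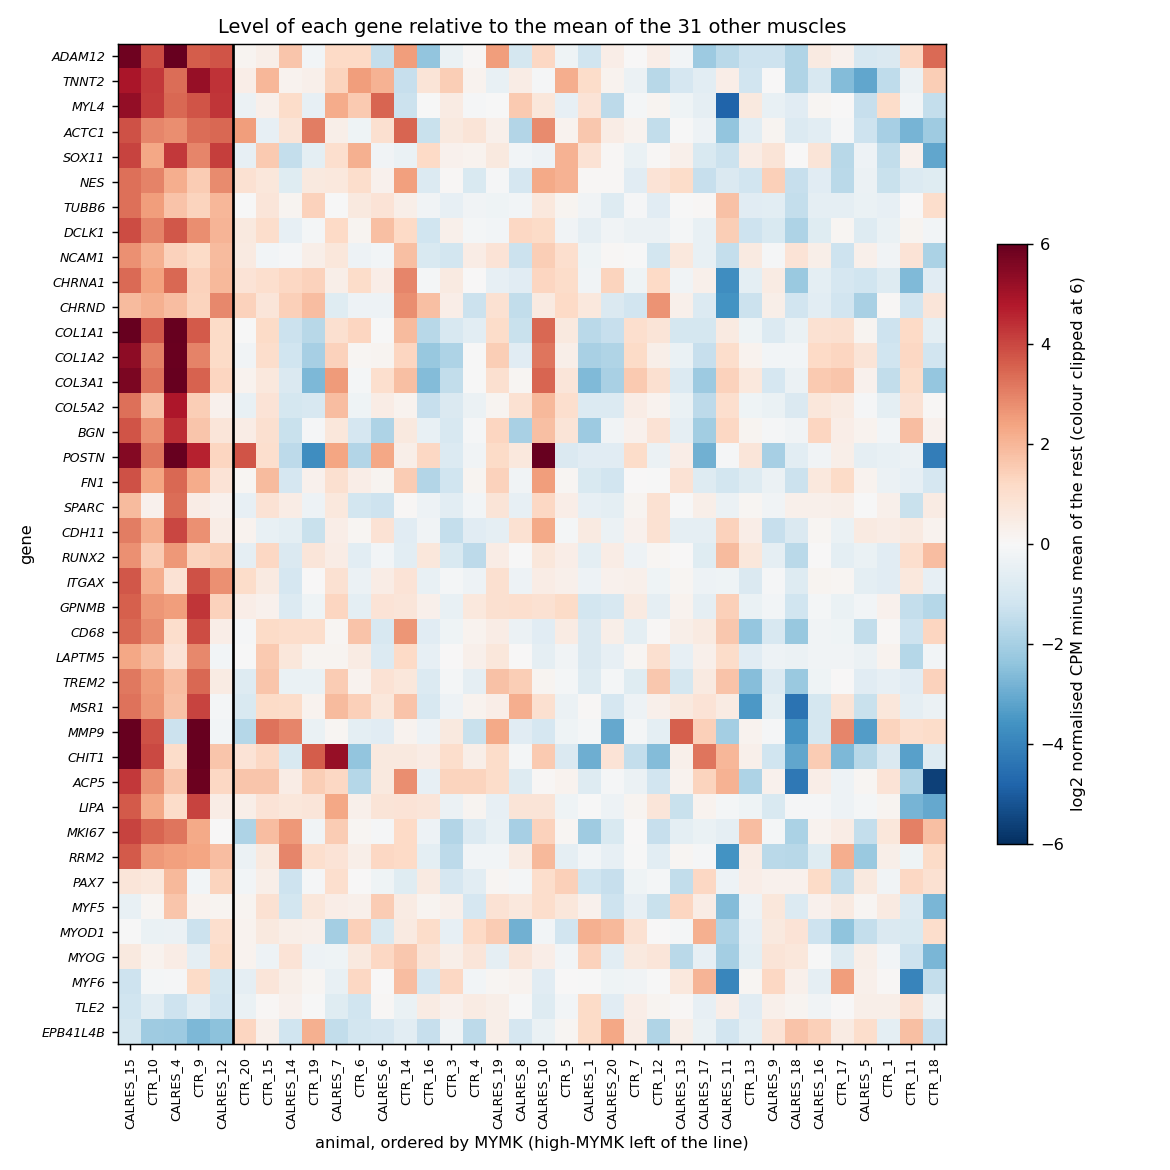
Log2 normalised CPM of 40 genes in each of the 36 muscles, relative to the mean of the 31 with MYMK under 1 CPM, with animals ordered by MYMK and the 5 high-MYMK muscles left of the line. Red is higher and blue lower, with colours clipped at 6. CALRES_12 is the palest of the 5 in COL1A1, COL1A2, COL3A1, COL5A2, BGN, POSTN and FN1, and CTR_10 in SPARC.

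Whether the difference depended on diet or on library set was tested as an interaction. No gene of 22826 had an adjusted p under 0.05 in edgeR for diet or for library set. At an unadjusted p under 0.05, edgeR had 774 genes (3.39%) for diet and 752 (3.29%) for library set. Calls by limma-voom were 0 for diet and 3 for library set. With 3 CR and 2 control animals in the high group, the test could miss a dependence on diet. Library set 2 held 2 of the 5 animals and no control animal among them, so diet and library set could be separated only in part. Within the control animals 13 genes were higher, within the CR animals 62, within library set 1 253 and within library set 2 4.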

How the data were processed

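RNA of the vastus lateralis of 40 rhesus monkeys was depleted of ribosomal RNA and sequenced from stranded total RNA libraries. Per the labels and the study's methods, the authors trimmed the reads, aligned them to Mmul_10 by STAR under an Ensembl annotation, then obtained gene counts from featureCounts. Strand and multi-mapping settings are not given in the sources used here. The deposited values are raw counts for 35432 genes per animal, 24186 of them matched to a symbol. Of these, 6270 shared their symbol with another gene and were kept under their gene ID. Genes without a matched symbol, the mitochondrial ones included, and genes with a shared symbol are outside the lists. Genes that share reads with near-identical copies are uncertain.

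Levels in the text are normalised CPM, except MYMK and the levels given with CTR_8, in plain CPM. Depth was 86580429 to 329942965 counts over the 36 animals, so for abundant genes the spread between animals, more than counting error, sets the precision. This does not hold for genes of low level, where a few counts set the range of the rest. Examples are NKAIN4 and SOX11, with medians of 0.023 and 0.090 normalised CPM in the rest. Genes were kept by filterByExpr (minimum count 10) and tested with edgeR 4.0.16 in R 4.3.3 (TMM, quasi-likelihood F-test, model of library set, diet and MYMK group), with Benjamini-Hochberg adjustment over 20971 genes other than MYMK. Library set (titles 1 to 10 or 11 to 20) is a split made from the numbers in the sample titles and is not a documented batch. A prior count of 2 was used for log2 levels. SE is the absolute log2 fold change over the square root of F. The method was tested on simulated data.

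Members and gene lists were chosen with earlier results of these data known. Named genes are the markers and myogenic regulators, the 8 with the lowest p in each direction, up to 3 per list, and others added after values were seen. Alternatives included DESeq2 1.42.0 and limma 3.58.1 with voom. Promoters were read from the NCBI Mmul_10 assembly and annotation. Transcript-level values made with RSEM were not used. No pair of libraries was identical. Values of a further gene and the sequence of a further promoter are not reported here.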

Additional observations from a re-analysis of the deposited data

Results flagged for a closer look

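Among the 5 high-MYMK muscles, 1 animal stood apart from the other 4 in 2 of 77 genes examined (a gap to the nearest animal over 0.71 of the range on the log2 scale, which chance gives in about 1 in 20 groups, more than the share seen here). MYH7, the slow myosin, was at 16.6 normalised CPM in CTR_9, far under the others. TMEM169 was at 0.408 normalised CPM in CALRES_15, above the others.

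CTR_8, which the comparison leaves out, had MYMK at 0.903 CPM, above the highest of the 31 other animals (0.817) and under the threshold. The study's methods excluded 4 samples with degraded RNA and did not name them. Whether CTR_8 was among them was not checked. Its TNNT2 was 4.07 CPM and its DCLK1 28.0 CPM, both within the range of the rest (highest 6.62 and 30.4). The lowest values in the high-MYMK muscles were 13.1 and 30.9. ADAM12 in CTR_8 was 0.157 CPM, near the median of the rest (0.22). Its ITGAX was 9.83 CPM, above the highest of the rest (8.17) and the lowest value of the high-MYMK muscles (7.92), and its COL1A1 was 88.8 CPM, above the lowest value of the high-MYMK muscles (75.1) and within the range of the rest (highest 291). These levels are plain CPM.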

How the results depend on the processing

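The number of higher genes (279) moved by over 1.5 times with limma-voom (1482), with at least 10 counts in every animal (153), in library set 2 alone (4), in control animals alone (13), in CR animals alone (62), without CALRES_4 and CALRES_15 (30) and with a MYMK threshold of 0.5 CPM (110, with 10 animals in the high group). With 1 animal left out in turn it ran from 52 to 400. The number of lower genes (2) was 34 with DESeq2, 330 with limma-voom, 110 with log2 MYMK as a number, 1 with size factors by relative log expression, with at least 10 counts in every animal and with the threshold of 0.5, and 0 with no filter, in library set 2, in either diet alone and without CALRES_4 and CALRES_15, and 0 to 3 with 1 animal left out. The interaction with library set called 3 genes with limma-voom.

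All 57 called genes that were followed one by one were also called by limma-voom, and all 56 of them that DESeq2 gave an adjusted p were called by it. With the replicate number of the labels as a block, 0 genes were higher and 0 lower. The numbers share no animal, and over 17 pairs the median correlation of same-numbered animals was 0.0153 (5 over 0.1, and 1 best with its own number) against -0.0118 for others, so they were not taken as pairs.

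Signs turned for MYOG (log2 fold change -0.12 with the replicate block, -0.42 in library set 1, -0.45 in controls, -0.17 with a threshold of 2 CPM), MYF5 (-0.23 in library set 2, -0.14 without CALRES_4 and CALRES_15), MYF6 (0.14 in controls) and CKMT2 (0.12 with the threshold of 0.5). With 1 animal left out, MYOG ran from -0.13 to 0.40 and MYF5 from -0.27 to 0.23. None of these 4 genes was called. With the threshold of 0.5, the high group's library totals were 9809790 counts higher, its share of the 10 most abundant genes was -4.51 percentage points different, and the odds ratio of library set 1 was 0.778. The cause was not tested for any of these.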

Other observations

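Gene families defined by symbol after the values were seen give counts beyond the lists, where 1.33% of all genes tested were higher. The family counts were not followed with 1 animal left out. Of 20 tested matrix metalloproteinases 6 were higher (MMP7, MMP9, MMP11, MMP12, MMP14 and MMP19), with a median log2 fold change of 0.86. MMP12 was unequal among the high-MYMK muscles. Its log2 normalised CPM was 0.81 in CALRES_15 and -0.14 in CTR_9, but -3.79 in CTR_10, -5.42 in CALRES_12 and -6.51 in CALRES_4. Of 43 collagen chains 11 were higher, with a median of 0.81. Of 17 SIGLEC and LILR receptors of myeloid cells 5 were higher (LILRA1, LILRA5, LILRB4, SIGLEC1 and SIGLEC5), with a median of 1.37. Of 29 tested genes whose symbol begins with ITGA or ITGB, a set not limited to integrin subunits, 4 were higher (ITGA4, ITGAL, ITGAX and ITGB2). Of 13 cathepsins none passed (median 0.40).

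MEST, an imprinted gene of growing tissue, was at 81.1 normalised CPM in CALRES_4 and at 4.97 to 11.8 in the other 4, and its log2 fold change of 1.83 (SE 0.40, adjusted p = 0.00778) was 0.71 without CALRES_4 and did not pass (adjusted p = 0.841). DCSTAMP, a protein of osteoclast fusion, was at 1.63 normalised CPM in CTR_9 and 0.782 in CALRES_15 and at 0.00624 to 0.092 in the other 3 (log2 fold change 4.77, SE 0.78, adjusted p = 2.00e-04), and did not pass without CTR_9 or without CALRES_15.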
